A study of Mus musculus with 4 samples.

Results

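The genes described here are 8 of the 27998 genes counted in both pools. They encode the 3 catalytic subunits of the immunoproteasome (Psmb8, Psmb9 and Psmb10), the 3 constitutive catalytic subunits that these replace (Psmb5, Psmb6 and Psmb7) and the 2 subunits of the PA28 activator (Psme1 and Psme2). They were taken by symbol, and their unique molecular identifier (UMI) counts were added up over all cells that carried the hashtag of a given mouse. The cells were Ly6C-high classical monocytes, sorted as Ly6G- CD11b+ CD115+ Ly6Chi cells from the marrow of C57BL/6 mice with no genetic change or treatment. Each mouse carried its own hashtag antibody, and each sex formed 1 pooled library with 5 young and 5 old animals. In the female pool the young animals were 15 weeks and the old ones 26.5 months of age, and in the male pool 14 weeks and 27 months. Sex, pool and the software version in the file headers coincide, so levels were not compared between the pools.

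The proteasome is a barrel of stacked rings that degrades tagged proteins, and its inner beta rings hold the catalytic sites. Constitutive particles carry the catalytic subunits beta1 (Psmb6), beta2 (Psmb7) and beta5 (Psmb5). In cells exposed to interferon, and in many immune cells at rest, newly built particles take up Psmb9, Psmb10 and Psmb8 in their place. The resulting immunoproteasome yields more of the peptides that fit MHC class I molecules, and PA28, a cap made of Psme1 and Psme2, opens the gate of the barrel. Psmb9 and Psmb8 lie in the MHC region beside Tap1 and Tap2, the peptide transporter of the endoplasmic reticulum.

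In females, all 3 immunoproteasome genes and both PA28 genes rose with age, while none of the 3 constitutive genes passed the test. The summed ratio of immunoproteasome to constitutive UMIs was 1.86 ± 0.309 in old and 1.48 ± 0.0268 in young females (SD, n = 5 mice per group), with no overlap between the ages. In males this ratio was 1.43 ± 0.396 in old and 1.14 ± 0.0895 in young mice, and the groups overlapped.

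By GENCODE on GRCm38, Psmb8 lies at chr17:34197721-34201454 on the plus strand and Psmb9 at chr17:34181987-34187764 on the minus strand. Psmb10 lies at chr8:105935735-105938444, Psmb5 at chr14:54614119-54618022 and Psmb7 at chr2:38588036-38644087, all on the minus strand, and Psmb6 at chr11:70525367-70527858 on the plus strand. Psme1 (chr14:55578123-55581529, plus strand) and Psme2 (chr14:55587441-55591113, minus strand) are neighbours. Exons of Psmb9 overlap those of Tap1, and exons of Psmb8, Psmb7 and Psme1 overlap those of Gm20496, Nek6 and Emc9, each on the opposite strand. Whether the counting used the strand is not given in the sources used here. Mir686 lies on the same strand within an exon of Psmb5. Psme2 has a near-identical copy, Psme2b, so that its counts are less certain, and Psme2b held 1800 UMIs in females against 34014 of Psme2.

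The promoters of Psmb8 and Psmb5 and of Psmb9 and Psmb6 are shown as pairs of subunits that exchange for each other in the particle, and that of Psme1 because it held the only interferon-stimulated response element found among the members. Each is the RefSeq window on GRCm38.p6 from 250 bases before to 50 bases after a transcription start site, written 5′ to 3′ on the strand of the gene. RefSeq promoters were found for 7 of the 8 members. The windows are chr17:34197945-34198244 (plus strand), chr17:34187281-34187580 (minus strand), chr14:54617946-54618245 (minus strand), chr11:70525107-70525406 (plus strand) and chr14:55578244-55578543 (plus strand). Capitals mark a match to 1 of 3 motifs searched on both strands: the interferon-stimulated response element (GAAA, then NN, then GAAA), the gamma-activated site TTCNNNGAA and the antioxidant response element TGACNNNGC. No match to the first overlapped a match to the second.
Psmb8: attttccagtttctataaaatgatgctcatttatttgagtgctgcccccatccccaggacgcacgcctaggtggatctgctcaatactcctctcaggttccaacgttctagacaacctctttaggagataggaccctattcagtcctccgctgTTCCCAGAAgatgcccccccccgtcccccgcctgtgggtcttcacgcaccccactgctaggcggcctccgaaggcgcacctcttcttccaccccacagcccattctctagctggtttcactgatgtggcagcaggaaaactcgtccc
Psmb9: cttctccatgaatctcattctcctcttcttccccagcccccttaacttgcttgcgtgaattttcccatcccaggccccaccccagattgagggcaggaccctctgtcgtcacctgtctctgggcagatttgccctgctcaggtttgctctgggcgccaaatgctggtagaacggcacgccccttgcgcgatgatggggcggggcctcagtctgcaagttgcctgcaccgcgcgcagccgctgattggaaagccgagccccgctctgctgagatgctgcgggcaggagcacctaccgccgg
Psmb5: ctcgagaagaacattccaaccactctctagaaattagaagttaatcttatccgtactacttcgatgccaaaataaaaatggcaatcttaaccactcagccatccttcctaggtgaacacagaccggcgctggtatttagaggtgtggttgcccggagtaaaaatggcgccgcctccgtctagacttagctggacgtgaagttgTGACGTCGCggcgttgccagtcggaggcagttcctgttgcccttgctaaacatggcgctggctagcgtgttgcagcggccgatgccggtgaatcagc
Psmb6: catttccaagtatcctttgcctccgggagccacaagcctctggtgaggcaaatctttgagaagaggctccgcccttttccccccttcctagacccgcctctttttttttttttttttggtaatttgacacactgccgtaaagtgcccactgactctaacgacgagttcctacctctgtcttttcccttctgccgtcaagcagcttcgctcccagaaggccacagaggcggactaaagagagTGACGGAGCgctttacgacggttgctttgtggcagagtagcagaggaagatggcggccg
Psme1: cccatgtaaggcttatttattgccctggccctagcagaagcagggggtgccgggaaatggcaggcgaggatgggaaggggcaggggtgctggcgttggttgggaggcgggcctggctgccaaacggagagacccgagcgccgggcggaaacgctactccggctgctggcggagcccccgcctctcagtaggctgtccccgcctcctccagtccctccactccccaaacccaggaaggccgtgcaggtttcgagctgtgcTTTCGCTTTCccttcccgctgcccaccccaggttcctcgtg

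The Psmb8 window held a gamma-activated site beginning 97 bases before the start site, a motif present in 8.3% of 32851 promoters of 300 bases. The Psme1 window held an interferon-stimulated response element beginning 9 bases after it, which 3.44% of promoters hold. The Psmb5 and Psmb6 windows each held an antioxidant response element, 47 and 9 bases before the start site, and 12.4% of promoters hold that motif. The windows of Psmb9, Psmb10 and Psme2 held none of the 3 motifs as spelled. The Psmb9 window shares 275 bases with that of Tap1, because the start sites of these genes, on opposite strands, are 226 bases apart. The RefSeq start site used was 474 bases from the 5′ end of the GENCODE gene for Psmb8, 434 for Psmb9 and 371 for Psme1, so these windows show 1 of several starts. A match is a description of sequence and not of binding.

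The values rest on 6641 female cells (3009 old, 3632 young) and 1227 male cells (526 old, 701 young). Total UMIs per mouse ranged from 4827334 to 11394290 in old and from 2827638 to 18186954 in young females. In males these totals ranged from 330586 to 1108320 in old and from 607408 to 915820 in young mice. The median UMIs per cell were higher in every old mouse than in any young mouse of the same pool. These medians ranged from 9699.5 to 13033 in old and from 7978 to 8990 in young females. In males the medians ranged from 4489.5 to 8844 in old and from 3805.5 to 4455.5 in young mice. The pools shared 0 barcodes. The monocyte genes Ly6c2 and Ccr2 had a UMI in 99.5% and 98.7% of female cells and in 93.5% and 93.3% of male cells. Ms4a6c had one in 99.7% of female and 95.9% of male cells, and Fn1 in 94.2% and 79.5%. Csf1r had one in 90.9% and 54.1%, and Itgam in 66.0% and 34.2%. T or NK cell markers summed to 39.6 to 93.5 CPM (counts scaled to a total of 1e+06 UMIs per mouse) in old and 38.9 to 64.7 in young females, and to 40.5 to 129 in old and 14.8 to 55.3 in young males, where Ncr1 was at 0. Neutrophil markers reached 16017 CPM in old and 10619 in young males and 1264 and 3185 in females, overlapping between the ages. Basophil markers summed to 30.5 to 539 CPM in old and 23.0 to 452 in young males, and to at most 1.43 and 3.32 in females. Of the B cell markers, Ms4a1 was at 0 in males. The part of these cells in the results was not tested.

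From here on, CPM of a gene over all cells of a mouse were scaled to total UMIs multiplied by a TMM normalization factor. Psmb8 encodes the beta5i subunit. Its level in old females was 1126, 882, 775, 805 and 849 CPM, and in young females 651, 628, 654, 654 and 638 CPM. The lowest old female lay above the highest young female, and the young values differed far less among themselves than the old ones. Psmb8 rose by 0.46 ± 0.08 on the log2 scale (SE, edgeR quasi-likelihood test, adjusted p = 0.003893). Psmb9, the beta1i subunit, was at 463, 335, 278, 296 and 318 CPM in old and at 225, 235, 239, 234 and 222 CPM in young females. It showed the largest change of the 8 genes, with a log2 fold change of 0.54 ± 0.10 (SE, edgeR, adjusted p = 0.00839). Psmb10, the beta2i subunit, was at 408, 303, 291, 303 and 307 CPM in old and at 254, 260, 250, 259 and 251 CPM in young females. The ages did not overlap for either gene, and for Psmb10 the log2 fold change was 0.34 ± 0.07 (SE, edgeR, adjusted p = 0.02017).

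The constitutive genes changed less. Psmb5, the beta5 subunit, was at 393, 369, 384, 360 and 418 CPM in old and at 352, 338, 356, 342 and 345 CPM in young females, which did not overlap. Its log2 difference was 0.15 ± 0.04 and missed the threshold over all genes (SE, edgeR, adjusted p = 0.0771). Psmb7, the beta2 subunit, ranged from 120 to 127 CPM in old and from 112 to 119 CPM in young females, with a log2 difference of 0.11 ± 0.04 (edgeR, adjusted p = 0.193). Psmb6, the beta1 subunit, was the only one of the 8 genes whose ages overlapped in females, at 314 to 339 CPM in old and 298 to 318 CPM in young mice, and its log2 difference was 0.08 ± 0.04 (edgeR, adjusted p = 0.346).

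Both PA28 genes rose less than Psmb8 and Psmb9. Psme2 was at 606, 488, 432, 429 and 467 CPM in old and at 379, 385, 382, 392 and 370 CPM in the young ones. Its log2 fold change was 0.34 ± 0.07 (SE, edgeR, adjusted p = 0.0196). Psme1 was at 603, 516, 478, 481 and 510 CPM in old and at 416, 432, 455, 442 and 436 CPM in the young ones. Its log2 fold change was 0.24 ± 0.06 (SE, edgeR, adjusted p = 0.0256). Neither gene overlapped between the ages, and old female 1 held the highest value of both.

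Thus 5 of 8 members were called higher in old females, against 2.03% of all 10074 genes tested, and none was called lower, against 1.4%. For 7 of 8 members the lowest old female exceeded the highest young female, which held for 3.38% of the genes. Psmb8 and Psmb9 were called in all 19 alternative settings, among them a choice of hashtag singlets that repeats the reported female fit. Psmb10, Psme1 and Psme2 lost the call in 8, 7 and 4 of these, with adjusted p-values of at most 0.0614, 0.0979 and 0.0622 (edgeR). Leaving out young female 1, 2 or 5 left 2 members called, and leaving out young female 3 or 4 left 3. Psme1 also lost the call without old female 2 (edgeR, adjusted p = 0.0516), and Psmb5 gained it without old female 4 (0.0253) and with DESeq2 (0.0394). Without old female 1 the same 5 members were called.

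In males, old mice were more spread. Psmb8 was at 604, 1165, 877, 601 and 875 CPM in old and at 612, 591, 546, 564 and 514 CPM in young males. On this scale, old males 2, 3 and 5 lay above all young males, and old males 1 and 4 lay among them. Without the TMM factors, old male 4 also lay above all young males. The log2 difference was 0.56 ± 0.14 (SE, edgeR, adjusted p = 0.191). Psmb9 was at 197, 424, 276, 213 and 340 CPM in old and at 214, 189, 167, 206 and 189 CPM in young males, with a log2 difference of 0.58 ± 0.17 (edgeR, adjusted p = 0.231). Psmb10 was at 205, 385, 257, 200 and 310 CPM in old and at 226, 218, 222, 221 and 210 CPM in young males, with a log2 difference of 0.31 ± 0.14 (edgeR, adjusted p = 0.453). For Psmb10 old males 1 and 4 were below every young male, and the other 3 old males above.

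Psme2 was at 363 to 665 CPM in old and 343 to 409 CPM in young males (log2 difference 0.36 ± 0.14, edgeR adjusted p = 0.338), and Psme1 at 242 to 475 CPM in old males and at most 328 CPM in young males (0.18 ± 0.14, adjusted p = 0.686). The constitutive genes Psmb5, Psmb6 and Psmb7 had log2 differences of 0.20, 0.19 and 0.14, with adjusted p-values between 0.442 and 0.599 (edgeR). Without old male 2 the log2 differences of Psmb10, Psme2 and Psme1 were 0.14, 0.22 and 0.01, that of Psme1 was 0.29 without old male 1, and that of Psmb5 was 0.13 without young male 4. No member was called in males, where edgeR called 0% of 5656 genes and DESeq2 called 22. At an unadjusted p under 0.05, 618 genes differed in males, 318 of them higher in old mice (5.62%), and among the members these were Psmb8, Psmb9, Psmb10, Psmb6 and Psme2. All 8 members overlapped between the ages, and 0.919% of genes had every old male above every young male. Psmb8 passed the threshold in males without old male 1 (edgeR, adjusted p = 0.0321), without old male 4 (0.0199), with DESeq2 (0.0459) and with no filter on low counts (0.00102). Psmb9 passed it without old male 1 (0.0347) and with no filter (0.0063). Without old male 2 the log2 differences of Psmb8 and Psmb9 fell to 0.40 and 0.39, and neither was called.

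The age difference of the members was not shown to differ between the sexes. In the fit over all 20 mice, the interaction of sex and age had adjusted p-values of at least 0.937 for the 8 members (edgeR), and their lowest unadjusted p was 0.280. It was called for 0.0225% of 8893 genes, and for no member with DESeq2.

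The ratio of each immunoproteasome gene to the constitutive gene that it replaces was then taken within each mouse. Each transcript gives reads from its 3′ end in this assay, so counts were not divided by length. The ratio of 2 genes also holds how well each is captured, so its change between mice was read and not its absolute value. Psmb8 to Psmb5 was 2.86, 2.39, 2.02, 2.24 and 2.03 in old females and 1.85, 1.86, 1.84, 1.91 and 1.85 in young females. Psmb9 to Psmb6 was 1.47, 1.02, 0.881, 0.942 and 0.937 in old and 0.745, 0.767, 0.751, 0.784 and 0.740 in young females. Psmb10 to Psmb7 was 3.27, 2.37, 2.43, 2.49 and 2.42 in old and 2.21, 2.28, 2.10, 2.23 and 2.24 in young females. The ages did not overlap for any of these ratios.

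On the log2 scale, the old minus young difference in females was 0.30 for Psmb8 to Psmb5, 0.45 for Psmb9 to Psmb6 and 0.22 for Psmb10 to Psmb7. Each had an exact two-sided permutation p of 0.0079, the smallest that 5 mice against 5 can give, and 0.0159 after Benjamini-Hochberg adjustment over 6 comparisons. Without old female 1 the difference of Psmb10 to Psmb7 was 0.14, still without overlap. In males the corresponding differences were 0.33, 0.36 and 0.13, the ages overlapped for each, and the exact permutation p-values were 0.198, 0.151 and 0.444 (adjusted 0.238, 0.226 and 0.444). In males the difference of Psmb9 to Psmb6 was 0.20 without old male 2, that of Psmb8 to Psmb5 was 0.20 without old male 5, and that of Psmb10 to Psmb7 was 0.03, 0.09 and 0.08 without old male 2, old male 5 and young male 4, and 0.21 without old male 4. When every cell was thinned to 2000 UMIs, the ages overlapped for Psmb8 to Psmb5 and Psmb10 to Psmb7 in females, with differences of 0.33 and 0.11 (adjusted exact permutation p = 0.0952 and 0.548). The Psmb9 to Psmb6 ratio kept its call at that depth (0.52).

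The summed ratio was 2.40, 1.84, 1.64, 1.77 and 1.67 in old females and 1.47, 1.48, 1.44, 1.52 and 1.47 in young females. Without old female 1, the highest, it was 1.73 ± 0.0931 (SD, n = 4), and the lowest old female, at 1.64, remained above the highest young female, at 1.52. In old males it was 1.116, 1.978, 1.421, 1.002 and 1.643, and in young males 1.20, 1.15, 1.13, 1.22 and 0.989. Old males 1 and 4 lay within the range of the young males and the other 3 old males above it. Without old male 2 the log2 difference of the summed ratio in males was 0.17, against 0.29 with all mice.

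**Figure D1:**
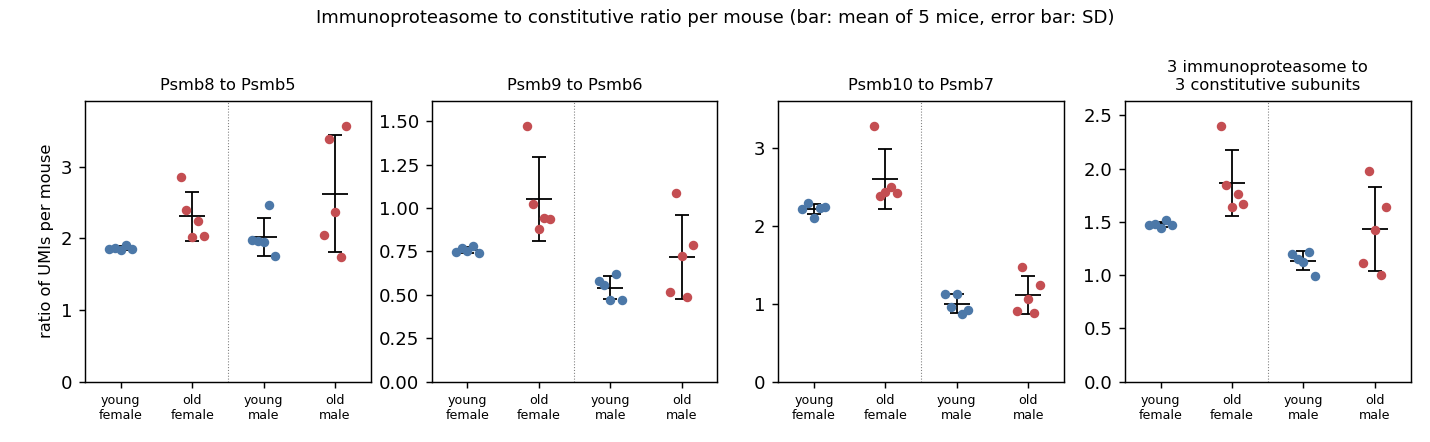
Ratio of UMIs of each immunoproteasome gene to its constitutive counterpart, and of the 3 genes summed to the 3 genes summed, per mouse (vertical axes, from 0), with bars for the mean and SD of 5 mice. In females no old mouse overlaps a young mouse in any panel, and in males the groups overlap in all 4.

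The share of cells with MHC class II RNA moved with the same mice. With every cell thinned to 2000 UMIs, cells with at least 2 UMIs of H2-Aa, H2-Ab1 and H2-Eb1 made up 57.4% of old female 1 and 7.39% to 11.97% of the other old females, against 3.56% to 5.41% of young females. They made up 33.3% and 38.9% of old males 2 and 5, 14.0% of old male 3, 11.1% and 2.13% of old males 1 and 4, and 5.65% to 7.60% of young males. Old female 1 and old males 2 and 5 also had the highest summed ratios of their pools. In a sum over cells, more cells of a kind and more RNA per cell cannot be told apart, so the genes were also read within classes of cells.

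Cells that had no such UMI after thinning to 2000 UMIs were then read from their full counts. Their summed ratio was 1.79 ± 0.242 in old and 1.46 ± 0.0300 in young females (SD, n = 5), without overlap. In males it was 1.27 ± 0.290 and 1.11 ± 0.0941, with overlap. The female cells of this class had a median of 10010 UMIs, so they can hold MHC class II UMIs that the thinning left out. In a fit on these cells alone the same 5 members were called in females, with log2 fold changes of 0.41 for Psmb8, 0.53 for Psmb9, 0.29 for Psmb10, 0.32 for Psme2 and 0.20 for Psme1 (edgeR, adjusted p of at most 0.0291). Of the 9917 genes tested in these cells in females, 160 were called higher in old mice and 148 lower. In males the log2 difference of Psmb8 there was 0.49 and that of Psmb9 0.41 (adjusted p = 0.0807 and 0.186), and the ratio of Psmb10 to Psmb7 changed sign, to -0.02. In cells without a UMI of 8 interferon-stimulated genes after the same thinning, Psmb8, Psmb9 and Psme2 were called in females. Of the 9740 genes tested there, 114 were called higher in old females and 62 lower. Psmb10 and Psme1 kept log2 differences of 0.31 and 0.23 there (edgeR, adjusted p = 0.0554 and 0.0668). These female cells had a median of 11105 UMIs, so they too can hold interferon-stimulated UMIs that the thinning left out.

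Within a mouse, the summed ratio was higher in cells with at least 2 MHC class II UMIs than in cells with none. This held in 10 of 10 females, at 2.20 ± 0.290 against 1.62 ± 0.237 (SD). It also held in 5 of 5 males that had 10 cells in both classes, of which 4 were old and 1 was young. Psmb8 and Psme1 were higher in cells with at least 2 MHC class II UMIs in 10 of 10 females. Psmb9 was higher there in 8 of 10, Psmb10 in 7 of 10 and Psme2 in 3 of 10. Psmb5 was lower there in 10 of 10, at 299 against 370 CPM. In cells with at least 2 interferon-stimulated UMIs the ratio was higher in 10 of 10 females, at 2.19 ± 0.262 against 1.60 ± 0.288, and all 3 immunoproteasome genes were higher in 10 of 10. In that class the ratio of old and young females overlapped, at 2.26 ± 0.350 and 2.12 ± 0.138, while Psmb8, Psmb9, Psmb10, Psme1 and Psme2 each stayed without overlap between the ages, higher in old mice. The share of all genes without overlap was not taken within this class, so how common such a gap is there is not known.

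The ratio was lower in cells with at least 3 UMIs of G2/M genes, at 1.59 ± 0.316 against 1.86 ± 0.302, and in cells with at least 2 UMIs of granule protein genes, at 1.58 ± 0.271 against 1.85 ± 0.366, in 10 of 10 females each. Of the constitutive genes, Psmb5 was at 375 against 327 CPM in the G2/M class (higher in 9 of 10 females) and Psmb6 at 337 against 275 CPM (10 of 10). In the granule class Psmb5 was at 393 against 322 CPM and Psmb6 at 328 against 291 CPM (10 of 10 each). Psmb7 was higher in 9 of 10 females in the G2/M class and in 6 of 10 in the granule class. The immunoproteasome genes differed among themselves in the G2/M class: Psmb9 was higher there in 10 of 10 females (median log2 difference 0.25), Psmb10 lower in 10 of 10 (-0.28), and Psmb8 within 0.08 of the other cells in every mouse. Median UMIs per cell were 16399 in the G2/M class and 7699 in cells without those UMIs, and 8552 and 10010 for the MHC class II classes. Old females remained above young females in the ratio of both the G2/M class (1.79 against 1.38) and the granule class (1.77 against 1.39). In the class with MHC class II UMIs the ratio overlapped between the ages (2.36 ± 0.185 against 2.03 ± 0.291), as did Psmb9 and Psme1, whereas Psmb8, Psmb10 and Psme2 did not. For this class too, the share of all genes without overlap was not taken. It held 490 old and 155 young female cells, and the part of counting error in the overlap was not tested.

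**Figure D2:**
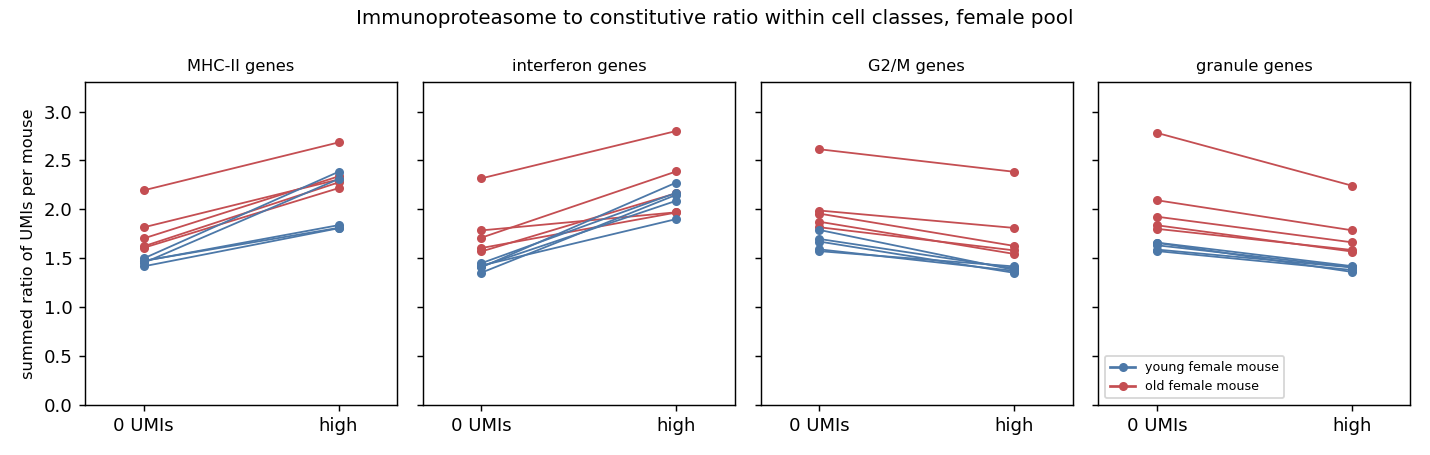
Summed ratio of immunoproteasome to constitutive UMIs (vertical axis, from 0) in cells of each female mouse with 0 UMIs and with a high number of UMIs of each gene class, with a line joining the values of 1 mouse (blue young, red old). The lines rise for MHC-II and interferon genes and fall for G2/M and granule genes in all 10 females. Classes were set on cells thinned to 2000 UMIs.

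At equal depth, the share of cells with at least 1 Psmb9 UMI was 47.4% ± 5.90 in old and 35.6% ± 2.65 in young females, and that of Psmb6 was 43.9% ± 1.17 and 45.7% ± 3.15 (SD, n = 5, cells thinned to 2000 UMIs, with 4 shallower cells left out). Before thinning the shares were 92.7% and 83.3% for Psmb9 and 93.4% and 91.7% for Psmb6. Unthinned shares also depend on UMIs per cell, whose medians were higher in old than in young mice of both pools. In males the thinned share of Psmb9 was 39.99% ± 14.8 in old and 27.3% ± 3.77 in young mice, and the unthinned share 74.6% and 54.3% (58 cells left out). No cell type of the sort lacks proteasomes, so the share from free RNA could not be read from these genes.

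The other 40 proteasome genes, which encode the alpha ring, the remaining beta subunits, the 19S cap, other activators and assembly factors, were all tested in both pools. No gene among them was called by edgeR in females or in males, although 15 and 7 had an unadjusted p under 0.05, all of them higher in old mice. Of all genes tested, 1667 of 10074 in females and 618 of 5656 in males had such a p. Of these, 838 and 318 were higher in old mice. With DESeq2, Psma1, Psma5 and Psmd13 were called in females and 0 in males. Small differences of 1 sign were common: 38 of 40 in females and 33 of 40 in males were above 0, with median log2 differences of 0.10 in both pools against -0.0012 in females and 0.0079 in males over all genes tested. In females the largest were Psme4, the PA200 activator (0.20), Psmd14, the deubiquitinase of the cap (0.19), and Psmd7 (0.18). The smallest were Psmd10 (-0.01), Psma7 of the alpha ring (-0.01) and Pomp, the maturation protein of the particle (0.03). By comparison, the median was 0.46 for the 3 immunoproteasome genes and 0.11 for the 3 constitutive genes in females, and 0.56 and 0.19 in males.

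**Figure D3:**
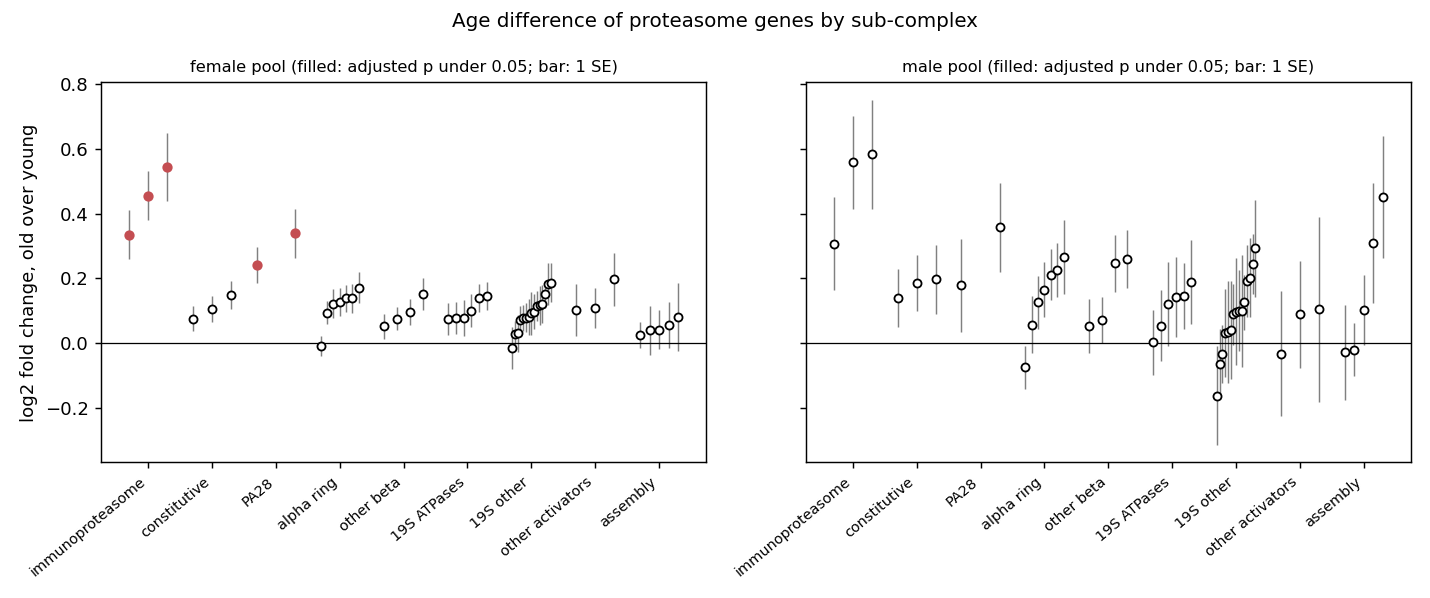
Log2 fold change of old over young mice (vertical axis) for the 48 proteasome genes, grouped by sub-complex, in the female (left) and male (right) pool, with bars of 1 SE and filled points for an adjusted p under 0.05. The only filled points are the 3 immunoproteasome and 2 PA28 genes in females.

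Among the genes listed as regulators of these promoters or for peptide supply to MHC class I, edgeR called Tap1, Irf1 and Tapbp higher in old females and none lower. DESeq2 called Irf8, a transcription factor of the monocyte and dendritic cell lineage, lower, and its log2 difference with edgeR was -0.22 (adjusted p = 0.0715). Tap1, a subunit of the peptide transporter whose promoter window overlaps that of Psmb9, was at 177 ± 37.4 CPM in old and 113 ± 5.96 CPM in young females (SD, log2 fold change 0.64, edgeR adjusted p = 0.00411). Irf1, a transcription factor induced by interferon-gamma, rose by 0.64 on the log2 scale (edgeR, adjusted p = 0.0340) and Tapbp, which loads peptides, by 0.19 (0.0415). None of these overlapped between the ages in females. In males 11 of the 15 genes listed were tested and 0 were called by edgeR. An unadjusted p under 0.05 was found for 5, all higher in old mice, against 318 higher among all 5656 genes. The log2 differences of Tap1, Irf1 and Tapbp there were 0.99, 1.08 and 0.36 (adjusted p from 0.230 to 0.396), and DESeq2 called Tap1.

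Over the 20 mice, each gene was compared with the mean profile of Psmb8, Psmb9 and Psmb10, each centred within its pool on the log2 scale. Of the 2316 genes with at least 50 CPM in both pools, the 5 with the smallest root mean square difference were Psme2 (0.09), B2m (0.10), H2-K1 (0.13), Ctsc (0.13) and Plac8 (0.14), against a median of 0.34. B2m and H2-K1 encode the light chain and a heavy chain of MHC class I, and Ctsc encodes a lysosomal protease. Psme1 ranked 9, and the constitutive genes Psmb7, Psmb6 and Psmb5 ranked 83, 289 and 363. These are descriptions across mice that share a library within each pool.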

How the data were processed

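Single-cell RNA of sorted classical monocytes was measured in 2 pooled libraries, 1 per sex. The authors deposited raw UMI counts of genes in each barcode, obtained according to the methods with STAR 2.5.1 on mm10 and Cell Ranger 4.0.0 and not normalized; the file headers name Cell Ranger 3.1.0 for females and 7.0.0 for males. Cells were assigned to mice by the leading hashtag (CLR) with the authors' hashtag table. Female cells were HTODemux singlets (Seurat 5.3.0) with over 200 genes and under 5% mitochondrial UMIs, which left out 2478 doublets and 942 negatives. All 1227 male barcodes were kept, since those data held no cell above 5% and no negative; HTODemux called 401 of them doublets, with a median of 95.1% of hashtag UMIs on the leading hashtag. Mouse numbers name animals only and pair none.

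Counts were summed per mouse and tested within each pool with the edgeR 4.0.16 quasi-likelihood test (TMM, filterByExpr) in R 4.3.3, two-sided, with Benjamini-Hochberg adjustment over all genes at 0.05, and over all 20 mice for the interaction. CPM of single genes over all cells of a mouse were scaled to total UMIs multiplied by its TMM factor. CPM of marker sums and within cell classes were plain shares of total UMIs. Cell classes were set by the UMIs of each cell after thinning to 2000 UMIs, and the counts read within them were not thinned. DESeq2 1.42.0 was an alternative. Ratios were compared by exact permutation over all assignments of mice to ages; the summed ratio was not tested. The fits were also run on simulated data, and the outcome of that run is not reported here. The named genes were the 8 members, listed proteasome and regulator genes called in either pool, Tap1, the 3 highest and 3 lowest other proteasome genes in females, and the 5 genes most like the immunoproteasome profile. Members and lists were chosen with earlier results of these data known. The study's clustering step was not repeated. Some listed genes are not reported here.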

Additional observations from a re-analysis of the deposited data

Results flagged for a closer look

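Within the groups of 5 mice, 48 sets of values (8 members and 4 ratios in 4 groups) were searched for a mouse set apart from the others by Dixon's criterion, which flags about 1 set in 20 by chance. It picked out old female 1 for Psmb10, at 408 CPM against 291 to 307 CPM in the other old females, and for the ratio of Psmb10 to Psmb7, at 3.27 against 2.37 to 2.49. This mouse had 393 cells and the largest share of cells with at least 2 MHC class II UMIs (57.4%). The part of that share in its Psmb10 level was not tested.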

How the results depend on the processing

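Psmb8 and Psmb9 kept direction and call in females in all 19 alternatives, and the summed ratio kept its direction in all 17 in either pool. Among these, HTODemux singlets in females and every barcode assigned in males are the cells of the fit reported, so these settings could not differ from it. In females, 149 of 7477 genes tested and 3 members were called with cells thinned to 2000 UMIs. In cells without interferon-stimulated UMIs at that depth, 176 of 9740 genes tested and 3 members were called. There the members lost were Psmb10 and Psme1. Cells without MHC class II UMIs were also chosen at that depth. In males, edgeR called 25 genes in cells without MHC class II UMIs, 8 in cells without interferon-stimulated UMIs and 95 genes, with 2 members, without a filter on low counts, and DESeq2 called 22, with 1 member. For the interaction of sex and age, 2 genes were called in the fit reported, 1 with HTODemux singlets, with every barcode assigned, without MHC class II UMIs or without interferon-stimulated UMIs, 0 after thinning, 4 with DESeq2 and 5 without a filter. After thinning, the log2 difference of Psmb6 in females was -0.012, that of the Psmb8 to Psmb5 ratio 0.33 and that of the Psmb10 to Psmb7 ratio 0.11. In cells without MHC class II UMIs, the log2 difference of the Psmb10 to Psmb7 ratio in males was -0.020. The cause of these changes was not tested.

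Leaving out 1 mouse at a time gave 194 to 522 called genes and 2 to 6 called members in females (194 without young female 2, 522 without old female 4), 0 to 39 genes and 0 to 2 members in males (39 without old male 1, 24 without old male 4), and 1 to 4 genes for the interaction (4 without old male 3). Male mice had 49 to 206 cells each and female mice 259 to 1592, so that male values carry more counting error. No paired analysis was possible because the mouse numbers name animals and no number is shared by design between old and young mice.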

Other observations

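In males, the ratio of immunoproteasome to constitutive UMIs was higher in cells with at least 2 interferon-stimulated UMIs than in cells with none. This held in 3 of 3 mice with 10 cells in both classes (2 old and 1 young), at 2.22 ± 0.284 against 1.36 ± 0.438 (SD). The ratio was lower in the granule class in 9 of 9 males, at 1.15 ± 0.238 against 1.59 ± 0.550, and in the G2/M class in 8 of 9. Psmb6 was higher in the granule class in 9 of 9 males and in 10 of 10 females, with median log2 differences of 0.36 and 0.18. Psmb10 was lower in the granule class in 10 of 10 females and in 6 of 9 males.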
